A study of Homo sapiens with 6 samples.

Results

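The 4 ERBB receptor genes (*EGFR*, *ERBB2*, *ERBB3* and *ERBB4*) and 6 genes for EGF-like ligands (*AREG*, *EREG*, *HBEGF*, *TGFA*, *BTC* and *NRG1*) were described in HGC27 cells, a human gastric cancer cell line. They were taken by gene symbol, and each of the 10 was found once among the 39739 gene rows. The RNA-seq data came from 6 libraries, 3 per group. In HGC27-FN1 3′-UTR cells, lentivirus had been used for stable overexpression of the 3′ untranslated region (3′-UTR) of *FN1*, the gene for the matrix protein fibronectin; the HGC27-control cells are labelled Control, with no vector named. The study's methods describe puromycin selection of the infected cells, and per the labels both groups grew in RPMI-1640 with fetal bovine serum. Nothing in the labels says that replicates were separate cultures, so each p-value measures only the spread between these libraries, which may be technical. The libraries held 16357085 to 29202046 reads assigned to genes in HGC27-FN1 3′-UTR cells and 22332816 to 37037532 in HGC27-control cells.

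The receptors are tyrosine kinases of the cell surface that work in pairs. An EGF-like ligand is made as a membrane precursor and released by proteases of the ADAM family; its binding opens the receptor, lets it pair with another and starts phosphorylation of the tail, from which the RAS-ERK and PI3K-AKT relays run. Amphiregulin and TGF-alpha (*AREG*, *TGFA*) bind EGFR, the products of *HBEGF*, *BTC* and *EREG* bind EGFR and ERBB4, and neuregulin 1 (*NRG1*) binds ERBB3 and ERBB4. ERBB2 has no known ligand and serves as the favoured partner of the others, whereas ERBB3 has little kinase activity of its own. In gastric cancer *ERBB2*, also called HER2, is amplified in some tumours and is the target of trastuzumab.

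Levels are given as RPKM, reads per kilobase of merged exons per 1000000 reads assigned to genes, so that genes of different length can be set side by side; the 3 values of a group are in the order of replicates 1, 2 and 3. Differences are HGC27-FN1 3′-UTR minus HGC27-control means of log2(RPKM + 0.1), with the standard error (SE) and the p-value of limma adjusted by the Benjamini-Hochberg method over the 23299 genes that reached 0.1 RPKM in at least 3 libraries. The pseudocount of 0.1 makes the difference of a low gene smaller than its true log2 ratio. Exact permutation, whose smallest two-sided p with 3 libraries a group is 0.1, was not used. *FN1* itself was at 0.777, 0.745 and 0.819 RPKM in HGC27-FN1 3′-UTR cells and at 0.543, 0.474 and 0.532 in HGC27-control cells, a ratio of means of 1.51 (log2 difference 0.52, SE 0.11, limma adjusted p = 0.0292). That *FN1* call was lost when any 1 of the 6 libraries was left out, with limma adjusted p from 0.0614 to 0.0982, and the deposited value covers all *FN1* exons without separating the 3′-UTR.

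The study examined *FN1* 3′-UTR as an RNA that binds microRNAs, so microRNA matches in the 3′-UTRs of the members were read from the sequences. The microRNAs searched were those for which the study's lists of predicted targets, some of them held here only in part, name a member, except miR-6783-3p, which was not searched. The mature sequences below (RefSeq, GRCh38.p14) have the seed, bases 2 to 8, in capitals; let-7i-5p stands for 5 let-7 forms with 1 shared seed, and let-7a-5p is shown to let the difference outside the seed be seen.
let-7i-5p: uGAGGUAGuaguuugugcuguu
let-7a-5p: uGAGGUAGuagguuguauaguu
miR-22-3p: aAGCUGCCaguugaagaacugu
miR-1287-5p: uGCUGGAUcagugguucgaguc
miR-629-5p: uGGGUUUAcguugggagaacu

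Stretches of member 3′-UTRs that hold the reverse complement of these seeds (capitals) are printed in transcript sense, with GRCh38 positions, from the GENCODE 29 transcripts. They were picked from the matches in *HBEGF*, which fell, and in *ERBB3*, *EGFR* and *TGFA*, whose groups of libraries also did not overlap. None of these 3 passed the limma test on log2 RPKM at an adjusted p under 0.05. Groups that did not overlap were found for 36.0% of all tested genes. The 3′-UTR of *NRG1* was not searched here, although the study's target lists name *NRG1* for miR-1287-5p by both TargetScan and DIANA. Not printed are a miR-22-3p match in *ERBB4* and matches to the seeds of miR-1304-5p in *TGFA*, miR-1343-3p in *EGFR* and *ERBB3*, and miR-365a-5p in *EGFR*.
HBEGF, let-7 (chr5:140334250-140334278, minus strand): atcggctggggactgCTACCTCtgagaag
ERBB3, miR-22-3p (chr12:56102076-56102104, plus strand): cagggagcatttaatGGCAGCTagtgcct
ERBB3, miR-1287-5p (chr12:56103325-56103353, plus strand): ttagaagccattctcATCCAGCagtgaga
ERBB3, miR-1287-5p, second match (chr12:56103364-56103392, plus strand): taggacagaaaaaagATCCAGCttcagct
EGFR, miR-1287-5p (chr7:55205826-55205854, plus strand): catttacagaaacgcATCCAGCaagaata
TGFA, miR-629-5p (chr2:70449877-70449905, minus strand): tgtgtctacacaggaTAAACCCaatacat

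Such matches are common, and each is a description of letters, not a bound site. The microRNAs were picked because target lists already name a member for them, so the shares below give no chance rate for the printed pairs. Searched on the transcript strand alone, CTACCTC stood in 8.61% of 18879 3′-UTRs and in 9.41% of the 2561 of a length like that of *HBEGF* (1456 nt), where it begins at base 36. GGCAGCT stood in 12.5% of all and in 14.3% of those as long as that of *ERBB3*. ATCCAGC was found in 7.70% of all 3′-UTRs, but in 24.6% of the 784 as long as that of *EGFR* (6011 nt) and in 8.16% of those as long as that of *ERBB3*, which held it 2 times. TAAACCC stood in 14.6% of those as long as that of *TGFA*. No other searched member held CTACCTC in its 3′-UTR.

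Among the members, *NRG1* rose and *HBEGF* fell in HGC27-FN1 3′-UTR cells. Of the 7 members tested, 1 was higher and 1 lower at a limma adjusted p under 0.05, against 5.62% of all tested genes higher and 7.36% lower (13.0% in either direction). The 6 libraries fell into non-overlapping groups for 5 of the 7 members, whereas 36.0% of all tested genes did so. The median log2 difference of the 7 was -0.27, beside -0.04 over all genes. On log2(RPKM + 0.1), none of the 7 passed an absolute log2 fold change above 1 with unadjusted limma p under 0.05. This is the form of criterion used in the study, and 1.65% of genes passed it upwards and 0.815% downwards. For *NRG1* this rests on the pseudocount, as its ratio of mean RPKM was 2.02. With limma-voom on reads recovered from RPKM its log2 difference was 1.01. Without the fold limit, limma's unadjusted p was under 0.05 for 1 member higher and 2 lower, as for 12.0% and 17.6% of all genes. The remaining members, *AREG*, *EREG* and *BTC*, were nearly without reads and could not be tested.

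**Figure D1:**
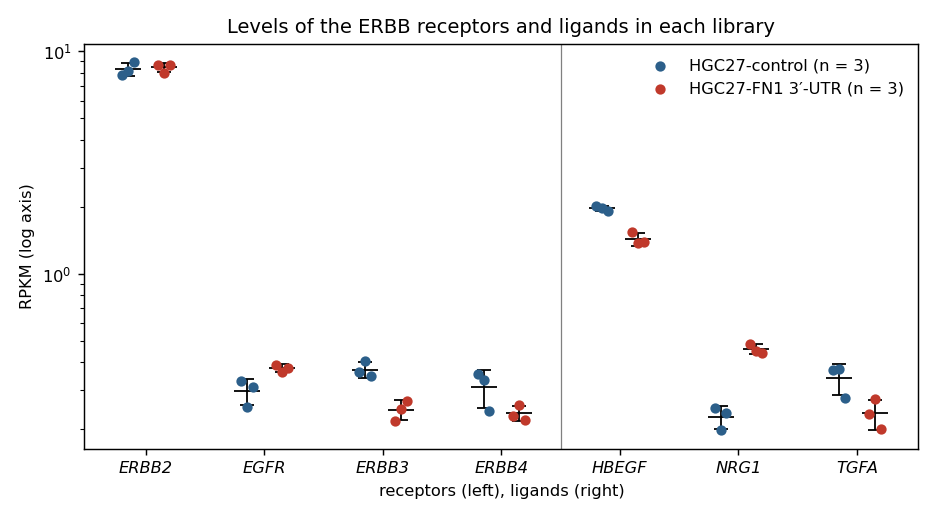
RPKM (log axis) of the 7 members above the filter in each library, with red points for HGC27-FN1 3′-UTR cells and blue points for controls, long ticks at the group means and error bars for the SD (n = 3). *ERBB2* sits near 8 RPKM in both groups, *NRG1* is higher in all 3 HGC27-FN1 3′-UTR libraries and *HBEGF* is lower in all 3.

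*ERBB2* was the most abundant member. Its level was 8.70, 7.97 and 8.71 RPKM in HGC27-FN1 3′-UTR cells and 7.82, 8.18 and 8.92 in HGC27-control cells, resting on 1468 to 3409 reads per library. The groups overlapped fully, with the lowest and the highest library both among the controls. The log2 difference was 0.03 (SE 0.06, 95% confidence interval -0.12 to 0.18, limma adjusted p = 0.821). The gene lies on chromosome 17 (39687914 to 39730426, plus strand). Its ends overlap *PGAP3* and *MIEN1* on the opposite strand; the library kit was strand-specific, but whether strand was used in counting is not given in the sources used here.

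*ERBB3*, the receptor that depends on a partner's kinase, was at 0.219, 0.246 and 0.269 RPKM in HGC27-FN1 3′-UTR cells. In HGC27-control cells it was at 0.362, 0.405 and 0.346 RPKM. Every control library was thus above every HGC27-FN1 3′-UTR library, on 289 reads against 151 in all. The log2 difference was -0.45 (SE 0.15, 95% confidence interval -0.81 to -0.09, limma adjusted p = 0.102). The adjusted p was 0.00889 with limma-voom on reads recovered from RPKM (log2 difference -0.57) and 0.0331 without a trend in the prior variance. The 3′ end of *ERBB3* (chromosome 12, 56079857 to 56103505, plus strand), including the 3 matches printed above, is overlapped on the same strand by *RP11-603J24.9*, to which 33673 and 40995 reads were assigned in the groups, so reads of the shared stretch cannot be divided between them.

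*EGFR*, the founding member of the family, showed the opposite sign. It was at 0.391, 0.363 and 0.378 RPKM in HGC27-FN1 3′-UTR cells and at 0.329, 0.252 and 0.309 in HGC27-control cells. The groups did not overlap, yet the log2 difference of 0.27 (SE 0.15, 95% confidence interval -0.08 to 0.63) did not pass the test (limma adjusted p = 0.280). With limma-voom on recovered reads it did, at a log2 difference of 0.36 (adjusted p = 0.0377). The reads numbered 329 and 332 in the groups, and *EGFR-AS1*, on the opposite strand within the gene (chromosome 7, 55019021 to 55211628), had 12 and 9.

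*ERBB4*, the other neuregulin receptor, was at 0.230, 0.258 and 0.221 RPKM in HGC27-FN1 3′-UTR cells and at 0.354, 0.334 and 0.241 in HGC27-control cells. Control replicate 3 lay among the HGC27-FN1 3′-UTR libraries and the other 2 controls above them. The log2 difference was -0.27 (SE 0.18, 95% confidence interval -0.71 to 0.16, limma adjusted p = 0.366). The gene lies on chromosome 2 (211375717 to 212538841, minus strand). Thus 0 of the 4 receptors passed the limma test on log2 RPKM, 1 (*ERBB3*, lower) had an unadjusted p under 0.05, and 2 (*ERBB3* lower, *EGFR* higher) passed limma-voom. Over all genes, 29.6% had an unadjusted limma p under 0.05 and 27.2% passed limma-voom (10.6% higher and 16.6% lower).

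The receptor pool was mostly *ERBB2*, and its total overlapped between the groups. The 4 receptors summed to 9.32 RPKM ± 0.413 (SD, n = 3) in the HGC27-FN1 3′-UTR group and to 9.28 ± 0.485 in HGC27-control cells. *ERBB2* made up 90.8% ± 0.520 of it in the former and 89.4% ± 1.35 in the latter. *ERBB3* made up 2.63% ± 0.289 against 4.01% ± 0.448, *ERBB4* 2.55% ± 0.326 against 3.36% ± 0.810, and *EGFR* 4.05% ± 0.0927 against 3.20% ± 0.488. The libraries of the groups did not overlap for the shares of *ERBB3* and *EGFR*, and overlapped for *ERBB2* and *ERBB4*. Shares of one sum are not independent of each other. The *ERBB2* level was 34.8 ± 4.23 times that of *ERBB3* in HGC27-FN1 3′-UTR cells and 22.5 ± 2.89 times in HGC27-control cells.

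**Figure D2:**
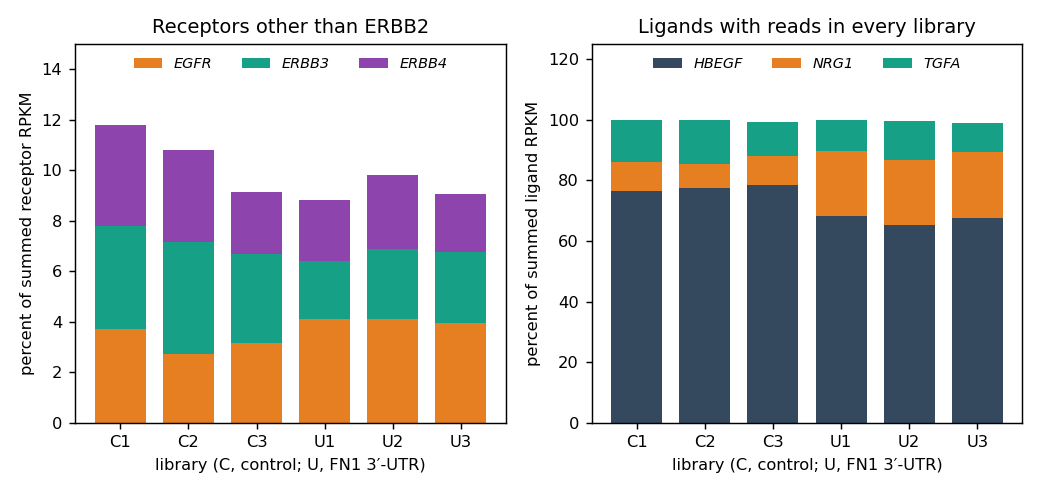
Stacked bars, 1 per library (C, HGC27-control; U, HGC27-FN1 3′-UTR; by replicate), give the percent of the summed RPKM of the 4 receptors held by those other than *ERBB2* (left) and of the 6 ligands held by the 3 with reads in every library (right). The *NRG1* segment is 7.79% to 9.62% in the controls and near 21.5% in each HGC27-FN1 3′-UTR library.

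*NRG1*, a ligand of ERBB3 and ERBB4, was at 0.486, 0.452 and 0.438 RPKM in HGC27-FN1 3′-UTR cells. In HGC27-control cells it was at 0.249, 0.198 and 0.236 RPKM. All 3 HGC27-FN1 3′-UTR libraries were above all controls, on 360 reads against 231, and the ratio of the mean RPKM was 2.02. The log2 difference was 0.77 (SE 0.14, 95% confidence interval 0.42 to 1.12, limma adjusted p = 0.0214). In bulk libraries, a change in the number of cells that express a gene and a change in RNA per cell cannot be told apart. The call held in only 1 of 6 fits with a library left out. The limma adjusted p was 0.0467 without control replicate 1, and 0.0713, 0.0702, 0.0587, 0.0761 and 0.0579 without HGC27-FN1 3′-UTR replicates 1, 2 and 3 and control replicates 2 and 3 in turn. With limma-voom the log2 difference was 1.01 (adjusted p = 1.07e-05), and with a pseudocount of 1 it was 0.25, since the gene is low. *NRG1* spans 31639386 to 32767959 on the plus strand of chromosome 8.

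*HBEGF*, heparin-binding EGF-like growth factor, was the most abundant of the member ligands. Its level was 1.54, 1.37 and 1.38 RPKM in HGC27-FN1 3′-UTR cells and 2.02, 1.97 and 1.92 in HGC27-control cells. The groups did not overlap, on 299 reads against 534, and the ratio of the mean RPKM was 0.727. The log2 difference was -0.44 (SE 0.07, 95% confidence interval -0.61 to -0.26, limma adjusted p = 0.0156). The call was lost without HGC27-FN1 3′-UTR replicate 2 (limma adjusted p = 0.0544), without HGC27-FN1 3′-UTR replicate 3 (0.0507) and without control replicate 2 (0.0653), and kept in the other 3 such fits. *HBEGF* lies on the minus strand of chromosome 5 (140332843 to 140346631), and its let-7 match is printed above. The study's let-7 target lists name *HBEGF* by the TargetScan prediction only. Any part of that match in the level of *HBEGF* was not tested.

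*TGFA*, whose product binds EGFR, was at 0.234, 0.272 and 0.200 RPKM in HGC27-FN1 3′-UTR cells and at 0.370, 0.373 and 0.277 in HGC27-control cells. The groups were apart, but only just, as the lowest control stood at 0.277 and the highest HGC27-FN1 3′-UTR library at 0.272. The log2 difference was -0.39 (SE 0.18, 95% confidence interval -0.82 to 0.04, limma adjusted p = 0.205), and 81 and 149 reads lay behind it. The gene is on the minus strand of chromosome 2 (70447280 to 70554193).

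The other 3 ligands lie in the same stretch of chromosome 4, with *AC142293.3* between *AREG* and *BTC*. *EREG* (74365143 to 74388751) ends 56.4 kb before *AREG* (74445134 to 74455009), and *BTC* (74744759 to 74794686) follows on the minus strand. *AREG* had 1 read in HGC27-FN1 3′-UTR replicate 3 and 1 in control replicate 3, *EREG* had 1 read in HGC27-FN1 3′-UTR replicate 2, and *BTC* had 0 reads in all 6 libraries. A count of 0 allows up to 3 reads. In the libraries with 0 reads this would be 0.0591 to 0.111 RPKM for *AREG*, 0.0142 to 0.0321 for *EREG* and 0.0288 to 0.0651 for *BTC*. These limits cover counting error only and do not hold for the libraries with 1 read. *EPGN* (74308473 to 74315307), the remaining ligand gene of that stretch, had 1 read in all. The whole stretch, 486 kb with 5 gene rows, was thus almost without reads in both groups, and no difference was detectable at this depth.

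The make-up of the ligand pool therefore rested on 3 genes. The summed RPKM of the 6 ligands was 2.13 ± 0.112 in HGC27-FN1 3′-UTR cells and 2.54 ± 0.0918 in HGC27-control cells, without overlap between the libraries. *NRG1* made up 21.5% ± 0.0284 and 8.95% ± 1.01 of it, *HBEGF* 67.0% ± 1.59 and 77.5% ± 0.940, and *TGFA* 11.0% ± 1.69 and 13.3% ± 1.79. The level of *HBEGF* was 3.03 to 3.17 times that of *NRG1* in HGC27-FN1 3′-UTR libraries and 8.10 to 9.95 times in HGC27-control libraries. The ratio of *HBEGF* to *TGFA*, ligands that share EGFR, was 5.03 to 6.92 and 5.28 to 6.93, with overlapping libraries.

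In the order of levels, *ERBB2* came first and *HBEGF* second in both groups. In HGC27-FN1 3′-UTR cells *NRG1* and then *EGFR* followed, each apart from its neighbours, before *ERBB3*, *ERBB4* and *TGFA*, whose libraries overlapped. In HGC27-control cells *ERBB3*, *TGFA*, *ERBB4* and *EGFR* followed with overlapping libraries, and *NRG1* was the lowest of the 7, apart from *EGFR*.

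**Figure D3:**
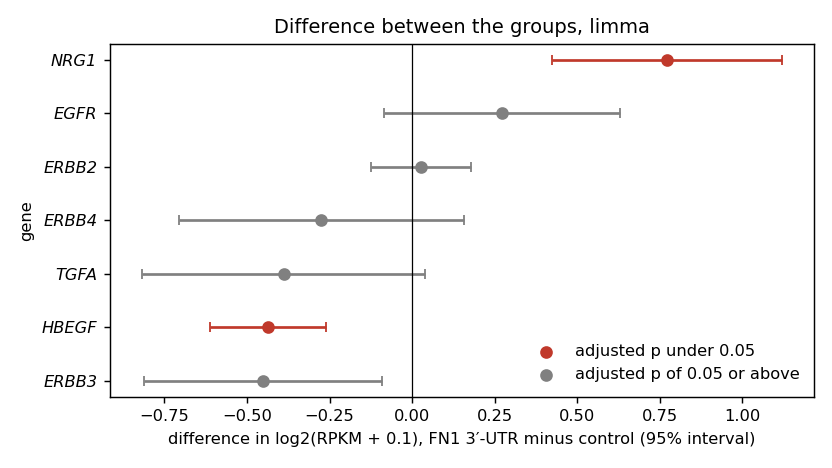
Difference in log2(RPKM + 0.1), HGC27-FN1 3′-UTR minus HGC27-control, for the 7 tested members, with 95% confidence intervals from limma. The intervals of *NRG1* (0.42 to 1.12), *HBEGF* (-0.61 to -0.26) and *ERBB3* (-0.81 to -0.09) exclude 0 before adjustment, and those of the other 4 include it.

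The genes with the pattern most like the 2 members of largest absolute difference were taken by Pearson correlation of log2(RPKM + 0.1) over the 6 libraries, among 14649 genes with a mean of at least 1 RPKM. For *NRG1* these were *EIF2B1* (r = 0.9976), *PDE5A* (r = 0.9974) and *RBMX* (r = 0.9968), with log2 differences of 0.20, 0.57 and 0.06. For *ERBB3* they were *ZNF135* (r = 0.9994), *CYB5RL* (r = 0.9970) and *C1R* (r = 0.9969), with log2 differences of -0.30, -0.16 and -0.36. With 6 points and so many genes compared, values this near to 1 are a description only.

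The other genes of the pathway were followed in 6 lists with 60 genes, of which 52 were tested. Of these, 5 were higher and 4 lower at a limma adjusted p under 0.05, beside the 5.62% and 7.36% of all genes given above, and their median log2 difference was -0.07. Further EGF-family ligands did not pass (0 of 2 tested, 0 at an unadjusted limma p under 0.05 and 0 with limma-voom). *NRG4*, a ligand of ERBB4, was at 1.34 ± 0.0800 and 1.22 ± 0.136 RPKM and *NRG2* at 0.764 ± 0.0531 and 0.832 ± 0.0455, each above the level of *NRG1* in both groups. *EGF* itself had 23 reads in all 6 libraries.

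Among the 6 genes that act on the release of the ligands, 5 were tested and 1 rose, beside 5.62% of all tested genes higher. *ADAM9*, a membrane protease, was at 18.5 ± 0.186 RPKM in HGC27-FN1 3′-UTR cells and 15.3 ± 0.256 in HGC27-control cells (log2 difference 0.28, limma adjusted p = 0.00404). *ADAM17*, the main protease for *HBEGF*, *TGFA* and *AREG* products, was at 6.57 ± 0.267 and 7.12 ± 0.266 RPKM (limma adjusted p = 0.178). *ADAM10* was at 3.07 ± 0.117 and 2.63 ± 0.108 RPKM (limma adjusted p = 0.0607).

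Of the coreceptors and membrane partners, 4 of 5 were tested and 3 rose, beside 5.62% of all tested genes higher. *CD44*, a hyaluronan receptor that can hold the HB-EGF precursor, was at 4.02 ± 0.153 RPKM against 2.97 ± 0.205 (log2 difference 0.42, limma adjusted p = 0.0130). *NRP1*, a coreceptor of semaphorins and VEGF, was at 1.27 ± 0.0743 against 0.852 ± 0.0410 (0.52, limma adjusted p = 0.0160). *MUC1*, a membrane mucin that binds ERBB receptors, was at 2.70 ± 0.496 against 1.72 ± 0.0498 (0.60, limma adjusted p = 0.0368).

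The relays downstream of the receptors were followed in 2 lists. Of 16 tested adaptors and members of the RAS-ERK relay, 1 fell: *SOS1*, the exchange factor that loads RAS with GTP, was at 5.64 ± 0.167 RPKM against 7.11 ± 0.122 (log2 difference -0.33, limma adjusted p = 0.00633). Of 13 tested genes of the PI3K, STAT, SRC and PLC relays, 1 rose and 2 fell. Over all tested genes 5.62% were higher and 7.36% lower by the same test. With limma-voom 6 of the 16 and 6 of the 13 passed, beside 27.2% of all genes. *PIK3R1*, a regulatory subunit of PI3K, was at 5.59 ± 0.137 against 4.57 ± 0.126 (0.29, limma adjusted p = 0.0119). *STAT5B*, a transcription factor, and *PLCG1*, a phospholipase, had log2 differences of -0.26 and -0.14 (limma adjusted p = 0.0378 and 0.0465). Of 12 negative regulators of the receptors, 1 fell, and with limma-voom 5 passed, 1 higher and 4 lower. The 1 that fell was *CBL*, the ubiquitin ligase that marks EGFR for degradation, at 2.14 ± 0.0792 RPKM against 2.56 ± 0.00396 (log2 difference -0.25, limma adjusted p = 0.0368).

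Of these 9 genes, *ADAM9*, *CD44* and *SOS1* passed in each of the 6 fits with a library left out, and *PIK3R1* in all but that without control replicate 2 (limma adjusted p = 0.0506). *NRP1* passed in 3 of the 6 (lost without HGC27-FN1 3′-UTR replicates 1 and 2 and control replicate 2, highest limma adjusted p = 0.0652), *MUC1* and *STAT5B* in 1 (kept without HGC27-FN1 3′-UTR replicate 1 and without control replicate 1), and *CBL* and *PLCG1* in none. Median-ratio scaling of the libraries moved the higher share of all called genes from 43.3% to 56.0%, and with it 0 of the 12 negative regulators passed.

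**Figure D4:**
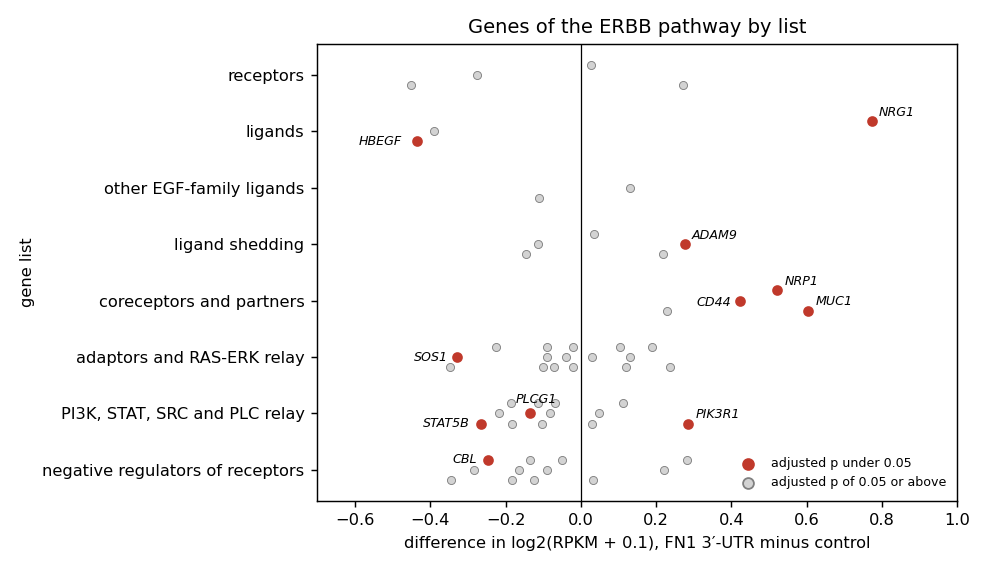
Difference in log2(RPKM + 0.1), HGC27-FN1 3′-UTR minus HGC27-control, for each tested gene (point) of the receptors, the ligands and the 6 further pathway lists, with genes at a limma adjusted p under 0.05 in red and named. The 3 red coreceptors lie right of 0, between 0.42 and 0.60, and *NRG1* lies farthest to the right.

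Markers of cell types were read beside these results. Of 15 epithelial markers, 13 were tested and 9 were higher and 0 lower in HGC27-FN1 3′-UTR cells at a limma adjusted p under 0.05. Over all tested genes 5.62% were higher and 7.36% lower. The median log2 difference of the 13 was 1.83, and the 15 summed to 21.4 to 30.9 RPKM against 4.38 to 4.74. *KRT18*, *EPCAM* and *CDH1* differed by 4.11, 2.59 and 1.83 on the log2 scale. *CLDN7* and *CLDN4* differed by 0.10 and -0.20 and did not pass (limma adjusted p = 0.592 and 0.545). *CLDN3*, which was not tested, had 0 reads in HGC27-FN1 3′-UTR cells and 3 in HGC27-control cells. Of 8 mesenchymal markers, 7 were tested and 4 were higher, and the summed level was 464.5 to 489 RPKM against 399 to 458, with *VIM* at 0.01 on the log2 scale (limma adjusted p = 0.958). The fibroblast list summed to 15.2 to 17.2 against 9.54 to 11.5 RPKM, with 1 of 5 higher. Leukocyte markers summed to 0.141 to 0.234 against 0.170 to 0.338 RPKM and endothelial markers to 0.172 to 0.196 against 0.0421 to 0.107, with *PECAM1* at 0 reads in every library. *NRG1* and *HBEGF* moved between the same libraries as the epithelial markers, and the part of these markers in either result was not tested.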

How the data were processed

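RNA-seq of 3 HGC27-FN1 3′-UTR and 3 HGC27-control libraries was used, grouped and numbered by the sample labels. Libraries were made with a strand-specific mRNA kit, and the authors deposited RPKM per gene, 1 table per library, with gene coordinates and merged-exon length. The submitters' processing notes name Trimmomatic 0.36, STAR 2.5.3a, featureCounts, Subread 1.5.1 and GRCh38; the annotation release, the strand setting and the handling of duplicates are not given in the sources used here. RPKM times length in kilobases added up to 1000000 per library, and the reads recovered from it were whole within 0.05.

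Genes reaching 0.1 RPKM in at least 3 of the 6 were tested as log2(RPKM + 0.1) with limma 3.58.1 (R 4.3.3; empirical Bayes with trend, group as the only term, two-sided, Benjamini-Hochberg adjustment). The same code was run on simulated data, but only with changes larger than those of the members in the main fit. That run therefore does not bear on changes of the members' size. Recovered reads, with at least 10 in 3 libraries, were tested by limma-voom as an alternative. Other alternatives were pseudocounts of 1 and 0.01, no filter, a mean RPKM of at least 1, no trend, median-ratio scaling, the replicate number as a block, and each library left out. Replicate libraries differed by more than sampling noise, and none was merged.

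The members and gene lists were chosen with earlier results of these data known. Genes named from the pathway lists were up to 4 per list with the smallest adjusted p under 0.05 and a mean RPKM of at least 1, and 3 genes most like each of 2 members; other names were chosen after their values were seen. 3′-UTRs were taken from 1 GENCODE 29 transcript per gene for 9 of the 10 members. *NRG3* and *CD3E* were not analysed here. The miRNA sequencing of the study was not used.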

Additional observations from a re-analysis of the deposited data

How the results depend on the processing

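The members and *FN1* gave 114 values under 15 alternatives, of which 113 kept their direction and 90 also their side of the threshold; the log2 difference of *ERBB2* ranged from -0.01 (without control replicate 1) to 0.08 with a library left out. Without a library, 0 to 1 members were higher and 0 to 1 lower, and 2 to 5 pathway genes higher and 1 to 2 lower. With a mean RPKM of at least 1, where only *ERBB2* and *HBEGF* could be tested, 0 members were higher. Without a trend 2 members were lower. With limma-voom 2 members were higher and 2 lower, and 11 pathway genes higher and 12 lower, beside 10.6% and 16.6% of the 19430 genes tested that way; with median-ratio scaling added, 2 and 2 members, and 12 and 9 pathway genes. Without a filter 1 pathway gene was lower, and with median-ratio scaling 2 were.

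The replicate numbers did not pair the libraries (correlations of the deviations of same-numbered libraries 0.00244, 0.0211 and 0.0103). With the replicate block, 0 members were higher and 0 lower, with a limma adjusted p of 0.0738 for *NRG1* and 0.0550 for *HBEGF*, and 3 pathway genes were higher and 1 lower. Over all genes 3025 were called, 1162 with the block, 5284 with limma-voom (5246 scaled) and 971 to 1880 without a library. The cause of these changes was not tested. Few reads lie behind the low members: 81 and 149 per group for *TGFA*, 151 and 289 for *ERBB3*, and 360 and 231 for *NRG1*.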

Other observations

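The genes around *ERBB2* on chromosome 17 were chosen for description after their values were seen. Within 200 kb of *ERBB2*, at 8.46 ± 0.421 RPKM in HGC27-FN1 3′-UTR cells and 8.31 ± 0.561 in HGC27-control cells (SD, n = 3), *MIEN1* was at 15.1 ± 0.760 and 14.6 ± 0.603 RPKM and *CDK12*, a kinase of transcription, at 7.11 ± 0.337 and 6.77 ± 0.269. *GRB7*, an adaptor of ERBB2 and its neighbour, was near 0, at 0.0815 ± 0.0228 and 0.0461 ± 0.00882 RPKM on 35 reads in all. *TCAP*, a muscle sarcomere gene of that stretch, was at 0.448 ± 0.0245 and 0.875 ± 0.120 RPKM (log2 difference -0.83, limma adjusted p = 0.0124).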
